A study of Mus musculus with 10 samples.

Results

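Ectodysplasin A (Eda) and its receptor Eda2r are a ligand and receptor of the tumour necrosis factor (TNF) superfamily. Both were taken by gene name from a table of RNA-seq counts of mouse biceps femoris, a hindlimb muscle: 2 genes of the 15883 in the table. They were chosen with their difference between the groups of the study known, so their own values are given as a description and carry no test.

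The 10 libraries came from male C57BL/6J mice of 5 weeks on normal chow, fasted for 16 hours overnight: 5 samples of wild type and 5 samples of mice that carry a Zfp407 transgene, written Zp407 in part of the labels. Neither the promoter that drives the transgene nor the number of founder lines was stated in the labels. The title of the series ties overexpression of this zinc finger protein to glucose homeostasis. Each column of counts names its group only, and libraries go here by group and column number; these numbers pair nothing. Means are given ± SD over the 5 libraries of a group and log2 fold changes (transgenic minus wild type) ± SE. Where a pair of means stands together, wild type comes first.

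Ectodysplasin A is a trimeric ligand that is made as a membrane protein and released by the protease furin. Its splice forms A1 and A2 differ by a pair of residues in the TNF domain. A1 binds the receptor Edar, which works through the adaptor Edaradd in the growth of hair, teeth and sweat glands. A2 binds Eda2r, also called XEDAR, a receptor that recruits TRAF proteins, activates NF-kB and is a known target of p53. In muscle, Eda2r has been linked to wasting through the kinase NIK, the product of Map3k14. Edar and Edaradd were not analysed here.

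The splice difference matters for reading the Eda values, since it decides which receptor the ligand fits, and it is too short for a count per gene to show. In the GENCODE M21 annotation (GRCm38), Eda has 12 transcripts, of which 9 are coding. In 3 coding transcripts the next-to-last coding exon ends at base 100395149 of chromosome X, in 5 it ends at 100395143, and 1 has another end. The first end adds 6 bases. The stretch across the junction is shown 5′ to 3′ in transcript order (plus strand), with 21 bases of coding sequence on either side and the added bases in capitals.
Eda-206, with the added bases: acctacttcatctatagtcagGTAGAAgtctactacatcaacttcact
Eda-205, without them: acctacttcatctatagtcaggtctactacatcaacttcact
Eda-206 encodes 391 residues, and the added bases are the A1-specific ones. Eda-205 encodes 386, fewer than the 6 bases account for, so these transcripts also differ elsewhere in their coding sequence. All counts of Eda below sum over these forms.

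Both genes lie on chromosome X, 2598 kb apart and on opposite strands (GRCm38). Eda (ENSMUSG00000059327) spans 99975606 to 100400762 on the plus strand, 425.2 kb with 6825 bases of annotated exons. Eda2r (ENSMUSG00000034457) spans 97333840 to 97377216 on the minus strand, 43.4 kb with 5891 bases of exons. Neither overlaps another gene that was tested; the Eda locus also holds Mir676 and 3 genes with Gm names.

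The 250 bases before each RefSeq start site (GRCm38.p6) are shown because the genes differed in opposite directions and their upstream sequences are of different kinds. Capitals mark GGGCGG on either strand (the GC box) and, in Eda2r, TATAAA (the TATA box), which do not overlap.
Eda, chrX:99975356-99975605, plus strand: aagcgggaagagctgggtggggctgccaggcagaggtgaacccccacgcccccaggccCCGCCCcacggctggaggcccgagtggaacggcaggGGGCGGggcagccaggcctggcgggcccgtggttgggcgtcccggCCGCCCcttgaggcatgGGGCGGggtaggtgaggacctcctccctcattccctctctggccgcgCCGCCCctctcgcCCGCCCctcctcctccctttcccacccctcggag
Eda2r, chrX:97377210-97377459, minus strand: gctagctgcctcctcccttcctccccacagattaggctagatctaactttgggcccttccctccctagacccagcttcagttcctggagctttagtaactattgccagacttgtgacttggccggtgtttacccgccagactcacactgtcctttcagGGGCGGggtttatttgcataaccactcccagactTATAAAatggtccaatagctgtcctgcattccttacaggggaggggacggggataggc
The Eda window is 75.6% G and C, above 96.4% of 32851 such mouse windows, and holds 6 GC boxes, 19 CpG and no TATA box. The Eda2r window is 53.2% G and C, near the median of 52.4%, and holds 1 GC box, 1 TATA box and 4 CpG. Of all windows, 32.7% hold a GC box and 12.4% a TATA box on either strand. Neither window holds the E-box CACGTG, the p53 half-site or the kappa-B motif, which 6.02%, 7.13% and 7.25% of windows hold. These matches describe letters and not bound sites.

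Depth ran from 13530367 to 19047834 counts per library, and levels are given as CPM, counts scaled to library size with TMM factors. Zfp407, the check of the labels, ran from 20.95 to 25.7 CPM among wild-type libraries and from 316.8 to 616.0 CPM among transgenic ones. Reads of the transgene and of the mouse's own copy fall in the same count. Over all genes tested, 4.28% rose and 1.05% fell in the transgenic group at an edgeR adjusted p under 0.05. All 7 muscle fibre markers were tested and none passed, with summed levels of 73850 to 99320 CPM in wild type and 67780 to 98010 CPM in the transgenic group. Of 19 hepatocyte markers tested 17 rose, with summed levels of 191.3 to 430.3 CPM in wild type and 529.5 to 5693 CPM in the transgenic group, the highest in transgenic library 5. Of 10 leukocyte markers 3 rose, with summed levels of 139.2 to 247.3 and 182.9 to 416.2 CPM, the highest in transgenic libraries 1 and 2. Of 6 satellite cell markers 3 rose, with summed levels of 25.85 to 28.5 CPM in wild type and 38.9 to 44.4 CPM in the transgenic group. Of 3 keratinocyte markers tested 1 fell, with summed levels of 8.13 to 13.4 and 4.70 to 8.20 CPM. No marker of adipocytes (6), fibroblasts (7), endothelium (6) or Schwann cells (4) passed, and no marker of any list that was in the table was at 0 in all libraries. Any pair of libraries within a group differed beyond counting noise (chi-square divided by its degrees of freedom 17.49 or more). Libraries that stood apart are named beside the results that rest on them.

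Eda, the ligand, was higher in every transgenic library than in every wild-type library. Wild-type libraries 1 to 5 had 3.39, 3.98, 4.22, 3.06 and 3.32 CPM, from 43 to 76 counts each. Transgenic libraries 1 to 5 had 9.90, 11.7, 19.4, 12.95 and 10.7 CPM, from 167 to 306 counts each. The wild-type libraries lay close together, while transgenic library 3 stood above the other transgenic libraries. The means were 3.59 ± 0.486 and 12.9 ± 3.77 CPM, and the log2 fold change was 1.84 ± 0.19, a fold of 3.59. The authors' deposited table gives a log2 fold change of 1.85 with an SE of 0.226.

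Eda2r, the receptor, was lower in every transgenic library than in every wild-type library. Wild-type libraries 1 to 5 had 74.4, 84.4, 70.5, 61.2 and 105.8 CPM, from 941 to 1465 counts each. Transgenic libraries 1 to 5 had 41.2, 31.0, 35.8, 40.8 and 37.3 CPM, from 566 to 864 counts each. Here the wild-type group was the wider, with library 5 the highest, and the transgenic libraries lay closer together. The means were 79.3 ± 17.0 and 37.2 ± 4.17 CPM, and the log2 fold change was -1.09 ± 0.15, a fold of 0.470. The authors' deposited table gives a log2 fold change of -1.09 with an SE of 0.160.

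**Figure D1:**
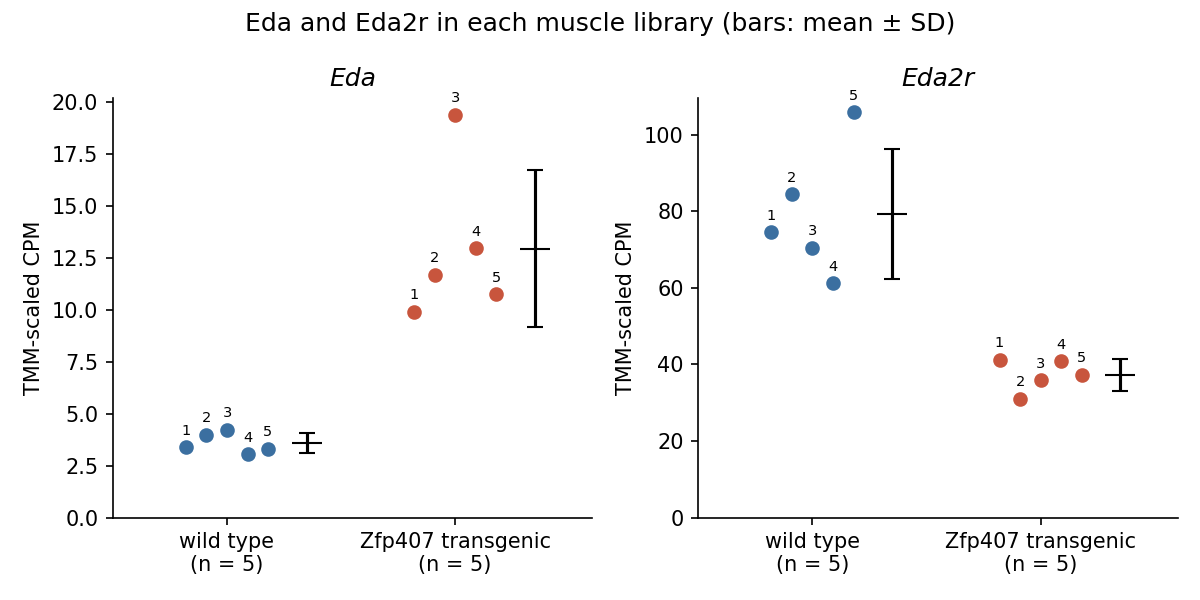
TMM-scaled CPM of Eda (left) and Eda2r (right) in each library, wild type in blue and Zfp407 transgenic in red, with the column number above each point and the mean ± SD (n = 5) beside it. Transgenic libraries run from 9.90 to 19.4 CPM for Eda, above all wild-type libraries, and from 31.0 to 41.2 CPM for Eda2r, below all wild-type libraries.

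Both genes passed the filter on low counts. Of the 13338 genes tested, 8.04% had groups that did not overlap, 5.14% with the transgenic group above and 2.90% with it below. A log2 fold change at least that of Eda was found in 1.73%, and one at most that of Eda2r in 0.240%. As the pair was chosen from this contrast, nothing is read from their place among those shares. In bulk muscle, fewer cells of a type and less RNA per cell cannot be told apart, and this holds for each level given here.

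The difference of each member was about as large without the libraries that stood apart. Transgenic libraries 4 and 5 had the highest hepatocyte levels, and 1 and 2 the highest leukocyte levels. Without transgenic libraries 4 and 5, the log2 fold change was 1.92 ± 0.22 for Eda and -1.14 ± 0.19 for Eda2r. Without transgenic libraries 1 and 2 it was 1.99 ± 0.20 for Eda and -1.07 ± 0.18 for Eda2r. Hepatocyte and satellite cell markers were higher in every transgenic library than in every wild-type library, as Eda was. Transgenic library 5, with the highest hepatocyte level, had the second lowest Eda of its group at 10.7 CPM, and transgenic library 3, with the lowest at 529.5 CPM, had the highest Eda. Transgenic library 3 also had the highest summed satellite cell level, at 44.4 CPM, though single markers of that list differed. Myf5 and Vcam1 were lowest of their group there, at 4.24 and 8.10 CPM, and Pax7, at 5.06 CPM, was not the highest. Myf5 and Pax7 were named after their values were seen. Without transgenic library 3 the log2 fold change of Eda was 1.65 ± 0.13. Wild-type library 5, the highest for Eda2r, had the highest summed level of Schwann cell markers, 207.6 CPM against 14.9 to 69.8 CPM in the other 9 libraries. Without it the log2 fold change of Eda2r was -0.97 ± 0.13. The part of these cell types in the differences of Eda and Eda2r was not tested.

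The ratio of receptor to ligand needs no scaling between libraries. Per base of exonic length, Eda2r exceeded Eda by 25.5, 24.6, 19.4, 23.2 and 36.9 times in wild-type libraries 1 to 5. In transgenic libraries 1 to 5 the ratio was 4.82, 3.07, 2.14, 3.65 and 4.02. The receptor transcript was thus the more abundant in all libraries, and the lowest wild-type ratio lay well above the highest transgenic one. The mean ratio was 25.9 ± 6.58 against 3.54 ± 1.01. Transgenic library 3, the highest for Eda, had the lowest ratio.

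**Figure D2:**
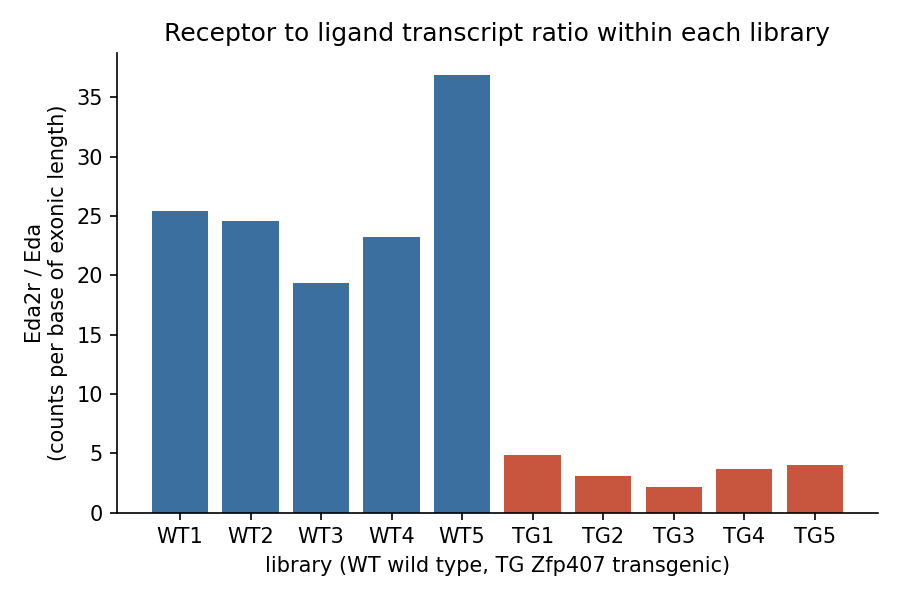
Ratio of Eda2r to Eda in each library, as counts per base of annotated exonic length; blue bars are wild type (WT) and red bars Zfp407 transgenic (TG). Wild-type ratios run from 19.4 to 36.9 and transgenic ratios from 2.14 to 4.82.

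Levels across the receptor family are compared as CPM per kb of exonic length. In wild-type muscle Eda2r had the highest mean of the 20 TNF receptor superfamily genes tested, at 13.45 ± 2.88. Ltbr, the lymphotoxin beta receptor, came next at 6.245 ± 0.607, then Tnfrsf21 (death receptor 6) at 5.78 ± 0.705 and Tnfrsf1a, the main receptor of TNF itself, at 5.06 ± 0.668 CPM per kb. The lowest wild-type library for Eda2r, at 10.4, lay above the highest for Ltbr, at 7.03, while Ltbr, Tnfrsf21 and Tnfrsf1a overlapped. In the transgenic group Eda2r ranked 3 of 20, at 6.32 ± 0.707, and overlapped its neighbours in that order. These were Tnfrsf12a, the receptor of TWEAK, at 7.01 ± 3.675, Ltbr at 6.66 ± 1.35 and Tnfrsf21 at 5.99 ± 0.264 CPM per kb.

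Of the ligands of the family, only Tnfsf10, which encodes TRAIL, passed the filter beside Eda. Its means were 1.19 ± 0.150 and 1.42 ± 0.673 CPM per kb. Eda lay below it in wild type, at 0.526 ± 0.0712, with no overlap of libraries. In the transgenic group Eda was at 1.89 ± 0.553, from 1.45 to 2.84, and overlapped the Tnfsf10 range of 0.709 to 2.36 CPM per kb. Tnfsf10 did not pass the test, with a log2 fold change of 0.25 ± 0.28 (edgeR adjusted p = 0.718).

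The other receptors of the family were tested with edgeR's quasi-likelihood test over all genes, where 5.33% of genes passed an adjusted p of 0.05, 4.28% higher and 1.05% lower in the transgenic group. At an unadjusted p of 0.05 the share was 18.1%, and DESeq2 called 7.74%. Of 19 tested, Tnfrsf11b rose, Ngfr fell and 17 did not pass, and 7 had an unadjusted p under 0.05, with a median log2 fold change of 0.11 against 0.003 over all genes. Tnfrsf11b encodes osteoprotegerin, a secreted decoy receptor. It had 0.0788, 0.254, 0.1665, 0.325 and 0.144 CPM in wild-type libraries 1 to 5 and 0.945, 1.35, 1.46, 1.94 and 1.48 CPM in transgenic libraries 1 to 5. The groups did not overlap, though the wild-type level rests on 14 counts in all against 133 (log2 fold change 2.83 ± 0.34; edgeR adjusted p = 0.000401). Tnfrsf11b passed the filter on low counts only through its transgenic libraries, so its p-value is a description. With a mean count of at least 20 required, it was not tested. Ngfr, the low-affinity neurotrophin receptor, fell from 3.03 ± 0.935 CPM to 1.18 ± 0.459 CPM. Its log2 fold change was -1.34 ± 0.28 (edgeR adjusted p = 0.0139), and without transgenic libraries 4 and 5 it was -1.19 ± 0.33, no longer past the threshold (edgeR adjusted p = 0.0766).

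Tnfrsf19, a relative of Edar also called TROY, did not pass, with 19.4 ± 5.97 against 18.5 ± 3.81 CPM (edgeR adjusted p = 0.905). In 2 settings the list held 4 called genes. Without transgenic library 1, Relt and Tnfrsf12a passed as well (edgeR adjusted p = 0.0326 and 0.0442). DESeq2 added Relt and Tnfrsf13b, a B cell receptor that did not pass the filter on low counts (adjusted p = 0.0398 and 0.00982). These 3 genes were named after their values were seen.

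**Figure D3:**
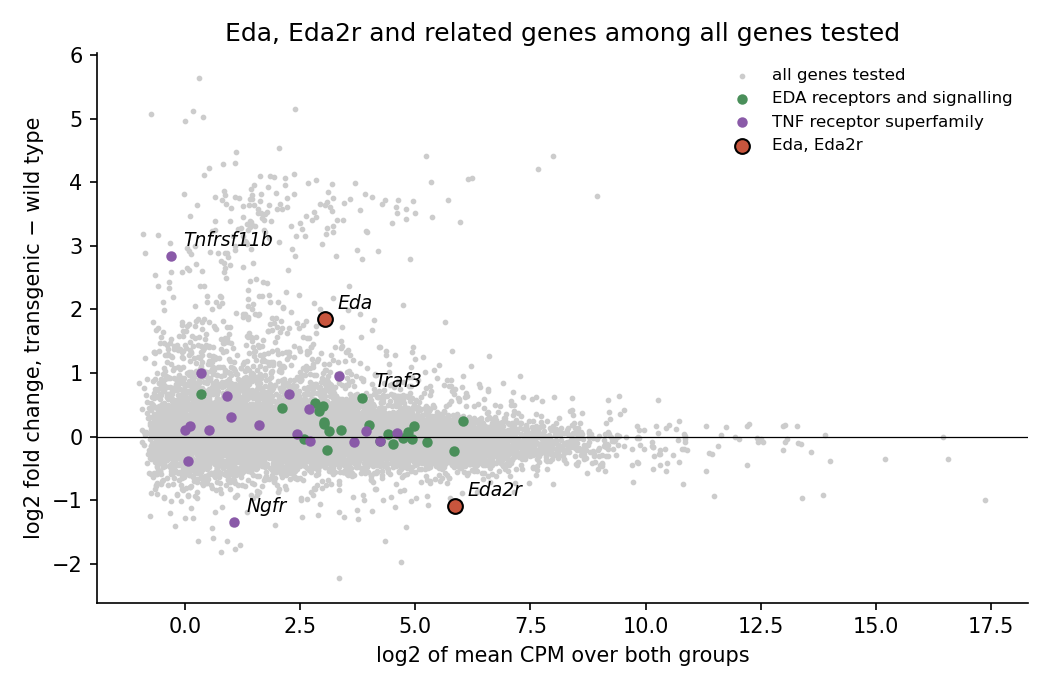
Log2 fold change (transgenic minus wild type) against the log2 of the mean CPM for the 13338 genes tested in grey, with signalling genes of ectodysplasin in green, TNF receptor genes in purple and the members in red. Eda lies at 1.84 and Eda2r at -1.09; Tnfrsf11b, Ngfr and Traf3 are the related genes that passed the test.

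Downstream of the receptors, most signalling genes did not pass. Of 23 tested, 1 rose and none fell (4.35%, against 5.33% of all genes), and the median log2 fold change was 0.11. An unadjusted p under 0.05 was found for 4. The gene that rose was Traf3, an adaptor that holds NIK at a low level. Wild-type libraries 1 to 5 had 10.3, 9.91, 12.0, 11.1 and 13.1 CPM of Traf3, and transgenic libraries 1 to 5 had 16.8, 15.4, 18.2, 18.7 and 17.3 CPM. The groups did not overlap, and the log2 fold change was 0.61 ± 0.11 (edgeR adjusted p = 0.00562), with an adjusted p from 0.00599 to 0.0319 when each library was left out.

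Map3k14, which encodes NIK, stood at 6.13 ± 2.13 against 5.94 ± 0.747 CPM (edgeR adjusted p = 0.952). Its wild-type libraries varied widely, from 4.57 to 9.23 CPM. Traf6, the adaptor that Edar and Eda2r share, stood at 20.9 ± 2.27 and 21.6 ± 1.35 CPM, and Furin, the protease that releases the ligand, at 31.1 ± 6.42 and 30.2 ± 8.08 CPM. Neither passed (edgeR adjusted p = 0.864 and 0.939). The 5 NF-kB subunit genes, Nfkb1, Nfkb2, Rela, Relb and Rel, had log2 fold changes from -0.02 to 0.52 and none passed. Nfkb2, the subunit that NIK signalling processes, had the largest, 0.52 ± 0.18 (edgeR adjusted p = 0.1245).

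Target genes of NF-kB gave 1 call among 15 tested (6.67%), with a median log2 fold change of 0.49, above the 0.003 of all genes. Fitted values lay above 0 for 12 and below 0 for 3, and 7 had an unadjusted p under 0.05. Vcam1, an adhesion protein that is also on the list of satellite cell markers, rose from 5.82 ± 0.958 CPM to 11.3 ± 3.33 CPM (log2 fold change 0.96 ± 0.20; edgeR adjusted p = 0.0133). Transgenic libraries 1 and 2, with the highest leukocyte levels, had the highest Vcam1 at 15.96 and 13.1 CPM. Without that pair no gene of the list passed, and Vcam1 had a log2 fold change of 0.65 ± 0.18 (edgeR adjusted p = 0.0710). Icam1 was just outside the threshold (edgeR adjusted p = 0.05003) and passed with DESeq2 (adjusted p = 0.0198). Nfkbia and Tnfaip3, inhibitors that NF-kB induces, had log2 fold changes of 0.39 and 0.62 (edgeR adjusted p = 0.400 and 0.184). Tnfaip3 stood at 7.17 CPM in transgenic library 2 against 3.17 to 3.84 CPM in the other transgenic libraries. All of these lay above the wild-type range of 2.13 to 3.05 CPM. Vcam1, Icam1 and Tnfaip3 were the 3 of the 15 whose groups did not overlap, all with the transgenic group above, as in 5.14% of all genes. Birc3 and Traf1 were highest in transgenic libraries 1 and 2, and their lowest log2 fold changes under the alternatives were 0.10 and -0.13. Nfkbia, Nfkb2 and Relb were instead highest in transgenic library 3. Birc3, Traf1, Nfkb2 and Relb are also on the signalling list. Icam1, Nfkbia, Tnfaip3, Birc3 and Traf1 were named after their values were seen.

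Of 14 names of ectodysplasin targets in skin appendages, 6 were in the table and 2 were tested, Ctgf and Fst, and neither passed. Their log2 fold changes were 0.70 ± 0.37 and -0.09 ± 0.28 (edgeR adjusted p = 0.345 and 0.909). No gene of this list had an unadjusted p under 0.05, and DESeq2 called 0. Ltb, the gene of lymphotoxin beta, was below the filter with 9 counts in all of wild type and 113 in all of the transgenic group. These totals do not show how the counts were spread over the libraries. With no filter on low counts, edgeR called 0 of 6 genes of this list.

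The p53 targets, which were listed because Eda2r is one of them, rose in 2 of 27 genes tested and fell in none (7.41%). Their median log2 fold change was -0.06, and 6 had an unadjusted p under 0.05. Without transgenic library 2, 2 p53 targets were called higher and 1 lower, and the same held without transgenic libraries 1 and 2. Cd82, a tetraspanin, rose from 5.26 ± 0.706 CPM to 8.49 ± 1.09 CPM (edgeR adjusted p = 0.0112). Ddb2, a damage sensor of nucleotide excision repair, rose from 2.15 ± 0.439 CPM to 4.57 ± 1.25 CPM (edgeR adjusted p = 0.0145). Ddb2 overlaps Acp2 on the other strand, and its log2 fold change was 1.08 ± 0.23. It was 1.06 ± 0.26 without transgenic libraries 4 and 5 and 0.90 ± 0.27 without transgenic libraries 1 and 2, in neither case past the threshold (edgeR adjusted p = 0.0503 and 0.0903). The best known targets, Cdkn1a and Mdm2, named after their values were seen, had log2 fold changes of -0.29 and -0.15 and did not pass (edgeR adjusted p = 0.610 and 0.581).

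Genes of muscle wasting gave no call among 18 tested by edgeR, with 3 at an unadjusted p under 0.05, and DESeq2 also called 0. The median log2 fold change was -0.18, against 0.003 over all genes. Those with the smallest p were Fbxo21, a ubiquitin ligase subunit, at -0.41 ± 0.15, and Il6st, the shared receptor chain of interleukin 6 cytokines, at -0.25 ± 0.10 (edgeR adjusted p = 0.148 and 0.205). The ubiquitin ligase genes Fbxo32 and Trim63, the usual markers of atrophy, were named after their values were seen. Fbxo32 had 915 to 2515 CPM in wild type and 801.2 to 1355 CPM in the transgenic group, and Trim63 661.2 to 2656 and 639.8 to 1411 CPM. Both varied widely in wild type, the groups overlapped, and neither passed (edgeR adjusted p = 0.280 and 0.815).

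Genes of Wnt signalling, a pathway known to induce Eda in skin, gave no call among 12 tested, with 5 at an unadjusted p under 0.05. DESeq2 called Fzd7 and Axin2 lower in the transgenic group and Rnf43 higher. Rnf43 was below the filter on low counts, with 6 counts in all of wild type and 56 in all of the transgenic group. Fzd7, a Wnt receptor, had 49.6 ± 12.9 against 30.7 ± 6.29 CPM, and Axin2, a target of the pathway, 5.70 ± 0.925 and 3.82 ± 0.663 CPM (edgeR adjusted p = 0.0564 and 0.0735). Without transgenic library 3 both passed (edgeR adjusted p = 0.0175 and 0.0395), with log2 fold changes of -0.83 and -0.64, and Fzd7 also passed without wild-type library 2 (edgeR adjusted p = 0.0130). Lef1, the factor through which Wnt acts on Eda, had a log2 fold change of 1.58 that fell to 0.29 without transgenic libraries 1 and 2 and did not pass (edgeR adjusted p = 0.146). Lef1 is also a lymphocyte gene and was named after its values were seen.

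**Figure D4:**
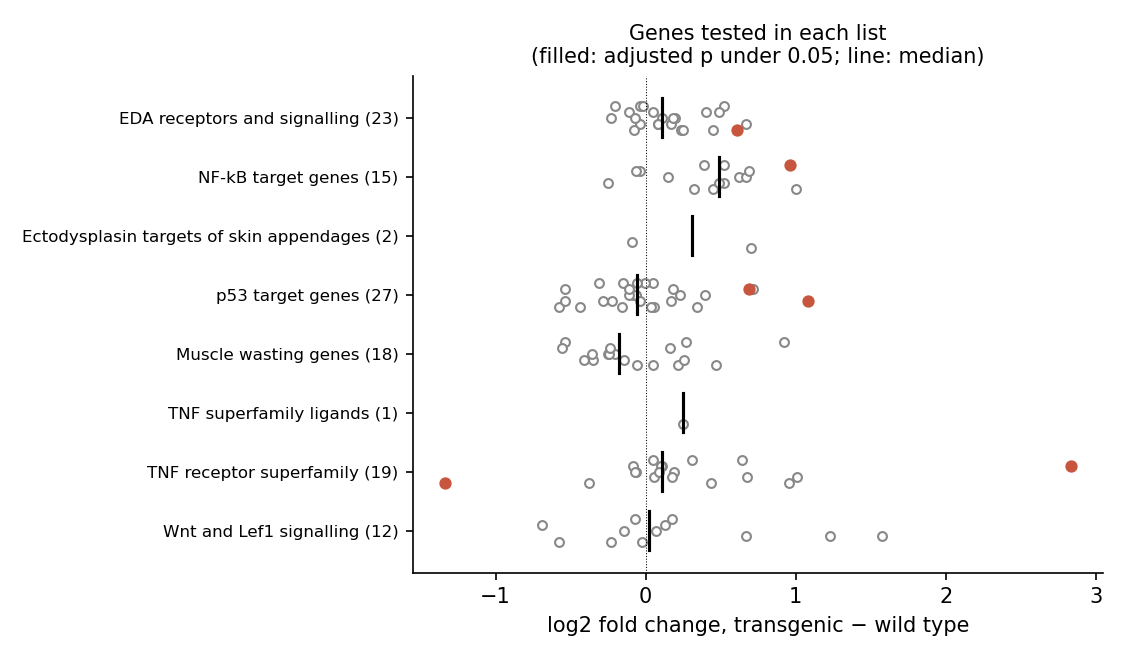
Log2 fold change (transgenic minus wild type) of each gene tested in the 8 lists, with the number tested in brackets; filled red points passed an adjusted p of 0.05 and the black line is the median. The filled points are Traf3, Vcam1, Cd82, Ddb2, Tnfrsf11b and Ngfr, and the median runs from -0.18 for muscle wasting to 0.49 for NF-kB targets.

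On the chromosome, of 11 genes tested within 1 Mb of Eda, 1 was called and the other 10 had log2 fold changes from -0.33 to 0.14. The called gene was Tmem28, the nearest tested gene on the left, at 99821021 to 99848790 (GRCm38), 126.8 kb before Eda on the same strand. It had 0, 0.169, 0, 0.0651 and 0.289 CPM in wild-type libraries 1 to 5 and 0.834, 0.605, 1.46, 0.851 and 1.09 CPM in transgenic libraries 1 to 5. All transgenic libraries lay above all wild-type libraries, on 7 and 86 counts in all (log2 fold change 3.18 ± 0.57; edgeR adjusted p = 0.00632). Its call held without each single library (edgeR adjusted p from 0.00509 to 0.0292). Tmem28 passed the filter on low counts only through its transgenic libraries, so its p-values are a description. With a mean count of at least 20 required, it was not tested. Transgenic library 3 was the highest for Tmem28, as it was for Eda. Igbp1, the nearest on the right at 93.5 kb, did not pass (log2 fold change -0.11 ± 0.10; edgeR adjusted p = 0.616).

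On the left of Eda2r, 2 genes were tested within 1 Mb, and neither passed. Gpr165, a G protein-coupled receptor gene at 614.5 kb, had a log2 fold change of 0.03 ± 0.34 (edgeR adjusted p = 0.979). Heph, the gene of the iron oxidase hephaestin at 759.4 kb, had one of -0.09 ± 0.36 (edgeR adjusted p = 0.925). Over all of chromosome X apart from the members, 21 of 439 genes tested passed, 13 higher and 8 lower, which is 4.78% against 5.33% of all genes. The median log2 fold change of the 439 was -0.067 against 0.003 over all genes. Fitted values lay above 0 for 175 and below 0 for 264. The neighbours above are counted in, Tmem28 among those that passed.

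**Figure D5:**
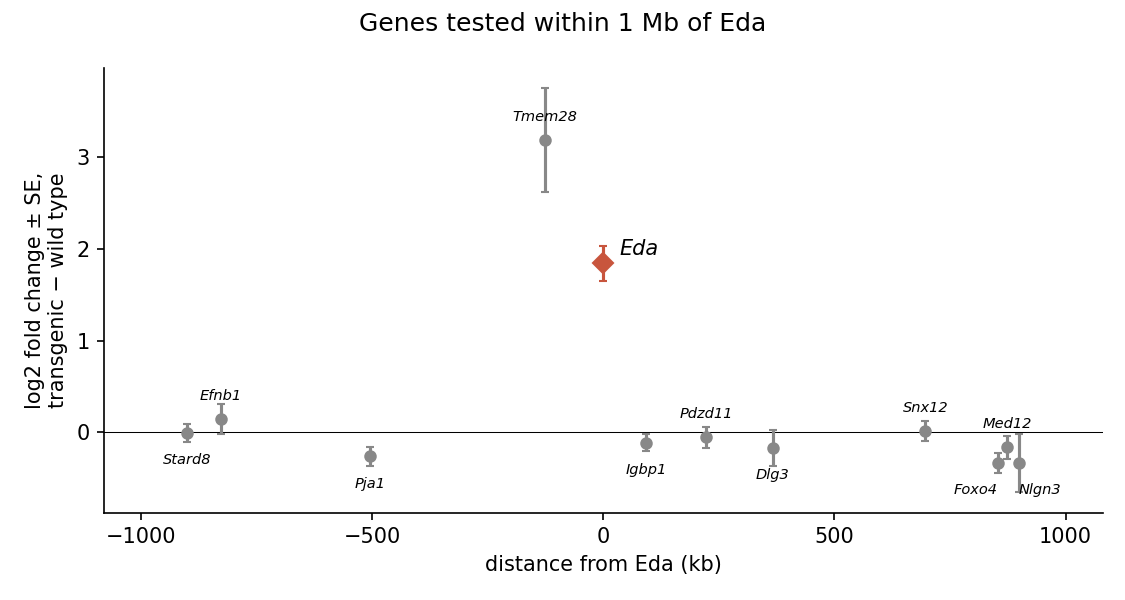
Log2 fold change ± SE (transgenic minus wild type) of the 11 genes tested within 1 Mb of Eda against distance in kb, with Eda as a red diamond at 0. Tmem28, at -126.8 kb, lies at 3.18; the other 10 neighbours lie between -0.33 and 0.14.

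Genes with the most similar pattern were sought among 12181 genes with a mean count of at least 20. Likeness was the root mean square difference in log2 CPM, each gene taken relative to its wild-type mean, over the 10 libraries. This measure uses the same contrast, so the values describe and test nothing. Nearest to Eda were Nab2, a corepressor of EGR factors (0.253), Kctd17 (0.255), Msra, which repairs oxidised methionine (0.327), Irf7, a factor of the interferon response (0.33), and Myd88, an adaptor of Toll-like receptors (0.340). Kctd17 had 2.63 to 3.86 CPM in wild type and 8.99 to 20.2 CPM in the transgenic group, with transgenic library 3 the highest, as for Eda. Transgenic library 3 was also the highest of its group for Msra, Irf7 and Myd88, but not for Nab2. Nab2, Irf7 and Myd88 overlap other tested genes on the opposite strand.

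Nearest to Eda2r were Cmya5, which encodes the muscle protein myospryn (0.213), Smg5, of nonsense-mediated decay (0.245), Psmd12, a proteasome subunit (0.246), Rbfox1, a splicing factor of muscle and nerve (0.247), and Porcn, which acylates Wnt proteins (0.249). Cmya5 had 3242 to 4751 CPM in wild type and 1517 to 2181 CPM in the transgenic group, with wild-type library 5 the highest, as for Eda2r. Wild-type library 5 was also the highest for Rbfox1, but not for Smg5, Psmd12 or Porcn. The log2 fold changes of these 5 genes ran from -1.02 to -0.85, and Porcn alone lies on chromosome X.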

How the data were processed

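The authors aligned and counted reads before deposit; the submitters' processing notes list TopHat2 2.1 and Bowtie2 2.2.6, besides SAMtools 1.2, HTSeq 0.6.1, DESeq2 1.10 and the build GRCm38.p4. Counting settings, strand and gene models were not stated, which leaves reads of overlapping genes unassigned between them. The table the authors deposited holds raw counts per gene for 10 libraries. It also holds, per the file headers, the authors' mean signal (normalized counts), log2 fold change with its SE, Wald statistic (a score) and p-values.

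After filterByExpr and TMM scaling, edgeR 4.0.16 in R 4.3.3 gave the quasi-likelihood test, with Benjamini-Hochberg adjustment over 13338 genes. Each SE is the log2 fold change over the root of its F statistic. Likeness used log2 CPM with a prior count of 2. The tests were checked on simulated data. Nothing states that libraries came from separate mice, so p-values measure only the spread between these samples, which may be technical. GENCODE M21 matched 99.8% of genes by ID.

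The members and lists were chosen with earlier results of these data known. Named genes were the members, 7 pathway genes whatever their values, up to 4 called genes of each list (or 2 with the smallest p), the 5 genes most like each member, the nearest neighbours, Zfp407, Alb and Ptprc. Alb and Ptprc are given only within their marker lists, and 1 gene that the rule names is not reported here. As alternatives, RLE and upper quartile factors were used, then DESeq2 1.42.0, no filter or a mean count of 20, no dominant rows (Lars2, Gm15564, Gm15662; 9.62% to 33.9% of counts), a prior count of 2 in the fit, an adjusted p of 0.01, and fits with libraries left out.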

Additional observations from a re-analysis of the deposited data

Results flagged for a closer look

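Among 70 pairs of a named gene and a group of 5 libraries, 2 held a library far from the others by Dixon's ratio on the log2 CPM scale (above 0.71), which chance gives in about 1 of 20 groups. Both concern transgenic library 3, the library with the highest Eda. Fzd7 stood at 41.7 CPM there against 26.2 to 29.8 CPM in the other transgenic libraries (ratio 0.722). Igbp1, the right-hand neighbour of Eda, stood at 23.4 CPM there against 26.45 to 27.7 CPM (ratio 0.730). The same ratio on the CPM scale, a choice made after seeing the data, passed 0.71 in 7 pairs. Besides Fzd7 (0.767) and Igbp1 (0.713), these were Alb in transgenic library 5 (0.818), Kctd17 in transgenic library 3 (0.786) and wild-type library 1 (0.744), Cd82 in transgenic library 3 (0.735) and Smg5 in wild-type library 2 (0.723), each the highest of its group. Eda and Eda2r did not pass on either scale.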

How the results depend on the processing

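The log2 fold change kept its direction under all alternatives run for Eda (1.65 to 1.92 with 1 library left out) and Eda2r (-1.20 to -0.97), and moved by less than the SD of log2 CPM pooled over both groups. Without transgenic library 3, the move of Eda from 1.84 to 1.65 was larger than the wild-type SD alone (0.187). Of 228 values under alternatives, 206 stayed within 1.5 times the reported count or 1 SD of the reported value, and none reversed. With 1 library left out, all genes called ran from 450 (without wild-type library 3) to 1116 (without transgenic library 3) against 711, TNF receptors from 2 to 4 (4 without transgenic library 1), Wnt genes from 0 to 2 (2 without transgenic library 3) and X-linked genes, here with Eda and Eda2r counted in, from 16 to 38 against 23 (38 without transgenic library 3). DESeq2 called 1230 genes, with 2 NF-kB targets, 4 TNF receptors and 3 Wnt genes. With no filter 1 Wnt gene (Rnf43) passed. With a mean count of at least 20 there were 2 NF-kB targets and 1 TNF receptor (Ngfr), as Tnfrsf11b was not tested there. Without transgenic libraries 4 and 5 there were 2 NF-kB targets (Vcam1 and Nfkbie), 1 p53 target and 1 TNF receptor, and without 1 and 2 there were 0 NF-kB targets. At an adjusted p of 0.01, 252 genes passed, with 0 NF-kB targets, 0 p53 targets, 1 TNF receptor and 13 X-linked genes (members counted in). The cause of these changes in count was not tested. No paired analysis was possible because the columns carry numbers that the labels do not tie to mice. Depth limits Tnfrsf11b and Tmem28, which had 14 and 7 counts in wild type.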
